A study of Solanum lycopersicum with 12 samples.

Results

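Gene expression in 2 reciprocal tomato hybrids was compared with that in their parental lines, with the mean of both hybrids set against the mid-parent. The comparison used all 12 libraries of the study, 6 of hybrids and 6 of parental lines, and all 17887 genes of the deposited table. The parental lines were Querubín FCA (Q) and Gema FCA (G), both recombinant inbred lines from a cross of cultivated tomato, Solanum lycopersicum, with its wild relative Solanum pimpinellifolium. The hybrids were QxG, labelled Q x G, and GxQ, labelled G x Q, so that both carry 1 genome set from each line. Each of the 4 genotypes was represented by 3 red ripe fruits from greenhouse plants, and RNA was taken from the mesocarp, the fleshy part of the fruit wall. No treatment was applied, and the labels give neither the plant nor the hour and day at which each fruit was picked. Differences in picking time between genotypes therefore cannot be told apart from differences in genotype.

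The mid-parent is the reference against which hybrids are usually judged. If each parental allele keeps its own activity in the hybrid, the transcript level lies at the arithmetic mean of the parents. A departure from that level is called non-additive expression. Here the mid-parent was the mean of the fitted log levels of Q and G, so that a log2 difference of 0 stands for a hybrid at their geometric mean. Where the parents differ, the geometric mean lies below the arithmetic mean. A call at such a gene, above all a rise, need not be non-additive expression. Levels are given as CPM, the reads of a gene relative to the scaled total of its library, and the adjusted p-values are from edgeR's quasi-likelihood test with the Benjamini-Hochberg correction over all 17887 genes. A gene is said to have risen or fallen where its adjusted p was under 0.05.

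Libraries held 15207931 to 25320267 counted reads. Transcripts of ripe fruit were abundant in every library. PSY1, the phytoene synthase of ripe fruit, ranged from 4411 to 9515 CPM, and the ripening regulator RIN from 539 to 1059 CPM. ACO1, PG2A and PL, also set as markers of ripe flesh, ranged from 627 to 3217, 995 to 7549 and 576 to 5212 CPM. PG2A and PL had their lowest means in GxQ, at 1177 and 652 CPM. Of 9 transcripts typical of the fruit epidermis 2 were measured, and none of 4 seed storage transcripts was among the genes analysed here. In a bulk sample, fewer cells of a type and less RNA per cell cannot be told apart. The first QxG library stood apart in its low counts: 1436 genes had 0 reads there, against 31 to 338 in the others, while 77 genes had 1 to 4 reads, against 100 to 730. The third Q library correlated least with its own genotype among the parental libraries (mean r = 0.955 on log2 CPM). Without these 2 libraries 6 of the joint calls named below were lost and 4 were gained, all 4 among the heat shock genes.

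Both hybrids together departed from the mid-parent at 2045 genes, 11.4% of those tested. Of these, 948 genes rose (5.3%) and 1097 fell (6.13%), with a median absolute log2 difference of 0.63 for the former and 0.80 for the latter. Most of the changes were below 2-fold, a size that 612 of the 2045 genes reached. At an unadjusted p under 0.05 there were 4959 genes (27.7%). The hybrid mean of all genes was close to the mid-parent, with a median log2 difference of -0.03. For 806 of the genes that rose and 960 of those that fell, the mean of each hybrid lay beyond the means of both parents. The parents themselves differed at 242 of the 2045 genes (11.8%), and at 7.31% of all genes.

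The count of 2045 varied with the libraries used. It dropped to between 1002 and 1272 when any 1 of the first and second Q libraries or the 3 G libraries was left out, and to 1345 without the third QxG library. Without the third GxQ library 702 rather than 1097 genes fell. Without the third Q and the first QxG libraries together it was 3649, of which 1821 rose and 1828 fell.

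**Figure D1:**
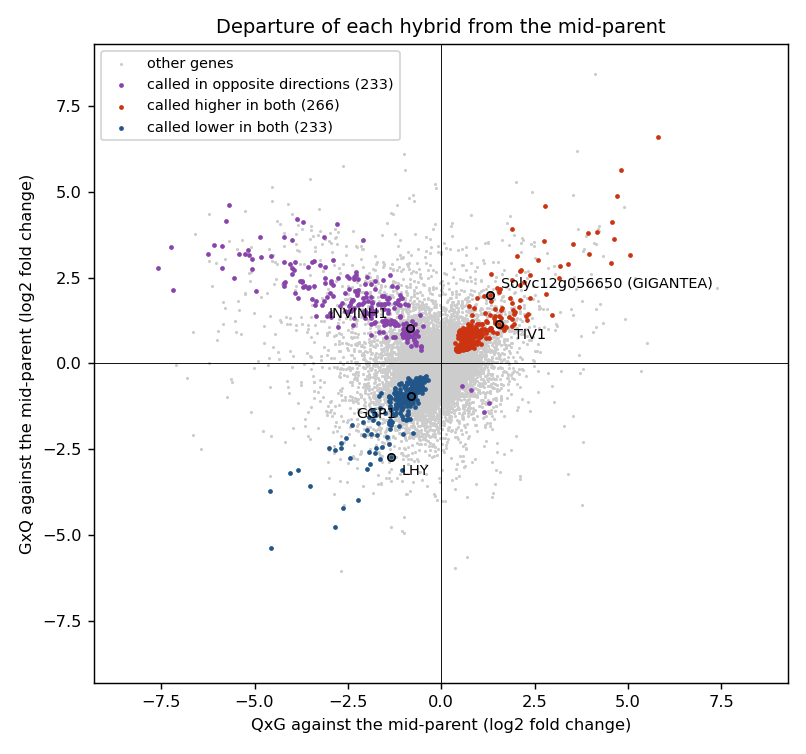
Log2 difference of QxG (x axis) and of GxQ (y axis) from the same mid-parent for all 17887 genes, with 1 point per gene, in red where called higher in both hybrids, blue where lower in both, purple where called in opposite directions and grey otherwise. The 499 genes called in both hybrids in the same direction lie toward the upper right and lower left corners, and 229 of the 233 opposite genes lie toward the upper left. Both axes subtract the same parental libraries, so the shape of the cloud alone is no measure of likeness.

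To find which changes the hybrids shared, each hybrid was also set against the mid-parent alone. QxG departed at 1522 genes (8.51%), of which 602 were higher (3.37%) and 920 lower (5.14%). GxQ departed at 2818 genes (15.8%), of which 1694 were higher (9.47%) and 1124 lower (6.28%). Both hybrids departed in the same direction at 499 genes (2.79% of all), which is 32.8% of the QxG genes and 17.7% of the GxQ genes. Since both comparisons use the same 6 parental libraries, they are not independent of each other. Of the shared genes 266 were higher (1.49%) and 233 lower (1.3%). The median log2 difference of the shared higher genes was 0.80 in QxG and 0.83 in GxQ, and that of the shared lower genes was -0.93 and -0.98. Leaving out single libraries moved the QxG count to between 368 (without the third QxG library) and 2536 (without the third Q library), with 685 to 810 genes without the first or second Q or the first or the third G library. The GxQ count was 1455 to 1872 without any 1 of its own 3 libraries. At 14 of the 499 genes, 6 higher and 8 lower, the hybrids nevertheless differed from each other when QxG was tested against GxQ.

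The number of shared genes was sensitive to single libraries. It was 156 without the third QxG library, 204 to 327 without any 1 of the first or second Q or the 3 G libraries, 300 without the third GxQ library, and 732 without the third Q library. Of the 499 genes, 144 remained without the third QxG library and 466 without the third Q library. QxG and GxQ libraries of the same replicate number deviated together, and with that number as a block in the hybrids 385 rather than 233 genes were lower in both, with 342 higher. Among the shared lower genes 7 (3.0%) had 0 reads in the first QxG library, against 0 of the shared higher genes and 8.03% of all genes.

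Most remaining genes of the 2045 were called in 1 hybrid or in neither. Of the 948 that rose, 431 were called in GxQ but not in QxG, 170 in QxG but not in GxQ, 80 in neither alone and 1 in opposite directions. Of the 1097 that fell, 480 were called in GxQ but not in QxG, 229 in QxG but not in GxQ, 152 in neither alone and 3 in opposite directions. Being called in 1 hybrid does not show a difference between the hybrids. That difference was called at 282 of the 2045 genes (13.8%), against 10.1% of all genes.

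Among the genes of the lists, the smallest adjusted p-values belonged to 2 genes of the circadian clock. The plant clock is a loop of transcription factors that repress each other in turn over the day. LHY is its morning MYB factor, which holds down genes of the evening, among them GIGANTEA (GI). GI and ELF3 in turn act late in the day, ELF3 as part of the evening complex. Of 10 clock genes measured, 3 rose and 1 fell in the hybrids, where 5.3% of all genes rose and 6.13% fell, with a median log2 difference of 0.20 over the 10 against -0.03 over all genes.

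LHY (Solyc10g005080) stood at 207, 212 and 188 CPM in the fruits of Q, 242, 250.1 and 281 CPM in G, 88.4, 106 and 75.7 CPM in QxG, and 46.3, 26.7 and 30.1 CPM in GxQ. All 6 hybrid libraries were below all 6 parental ones, and the GxQ libraries were below the QxG ones. The hybrids together were 4.1-fold below the mid-parent (log2 -2.04 ± 0.147, SE, adjusted p = 5.96e-05). LHY fell in QxG (log2 -1.34, adjusted p = 0.00302) and further in GxQ (log2 -2.73, adjusted p = 3.17e-05), and the hybrids differed by a log2 of 1.39 (adjusted p = 0.00127).

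A GI gene on chromosome 12, Solyc12g056650, moved the other way. It had 55.2, 40.5 and 62.7 CPM in Q fruits, 60.9, 76.4 and 69.1 CPM in G, 137, 146 and 162 CPM in QxG, and 226, 232 and 264 CPM in GxQ. The 4 genotypes did not overlap except for the parents, and the order of the hybrids mirrored that of LHY. The rise was 3.14-fold (log2 1.65 ± 0.122, SE, adjusted p = 5.96e-05), and it was larger in GxQ than in QxG by a log2 of 0.70 (log2 QxG minus GxQ -0.70, adjusted p = 0.021).

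The other GI gene, Solyc04g071990, reached 95.9, 111 and 106 CPM in QxG and 103, 152 and 141 CPM in GxQ. Its parental libraries lay between 43.2 and 79.1 CPM, below every hybrid library. It rose 1.94-fold (log2 0.95 ± 0.142, SE, adjusted p = 0.00287), and the hybrids did not pass the test of their difference (adjusted p = 0.329). LHY and both GI genes kept an adjusted p under 0.05 whichever library was left out, the highest being 0.0122.

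ELF3 (Solyc08g065870) was high in 1 hybrid. Its mean was 15.1 ± 3.65 CPM (SD, n = 3) in Q, 12.6 ± 1.11 in G, 15.3 ± 3.05 in QxG and 33.1 ± 5.99 in GxQ. The joint rise (log2 0.70, adjusted p = 0.0147) thus came with a log2 of 1.26 in GxQ and 0.15 in QxG, and the hybrids differed (log2 -1.11, adjusted p = 0.00652). Of the clock genes that did not pass the joint test, PRR5, a pseudo-response regulator that represses LHY, was named after its values were seen. It averaged 6.9 CPM in Q, 6.44 in G, 3.49 in QxG and 21.3 in GxQ, so that its log2 difference from the mid-parent was 1.67 in GxQ (adjusted p = 0.00256) and -0.94 in QxG (adjusted p = 0.0701). The other 5 clock genes were named after their values were seen, and none passed the joint test: LUX (log2 1.49, adjusted p = 0.0776), TOC1 (log2 -0.20, adjusted p = 0.259), PRR9 (log2 -0.41, adjusted p = 0.259), EID1 (log2 -0.51, adjusted p = 0.0952) and LNK2 (log2 0.04, adjusted p = 0.94). Of these, LUX, a partner of ELF3 in the evening complex, was higher in GxQ (log2 2.1, adjusted p = 0.03) at 1.97 to 3.62 CPM, and EID1 was lower in QxG (log2 -0.87, adjusted p = 0.0418). The hour of picking, which these genes follow in many plants, was not recorded in the labels and its part in these values was not tested.

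**Figure D2:**
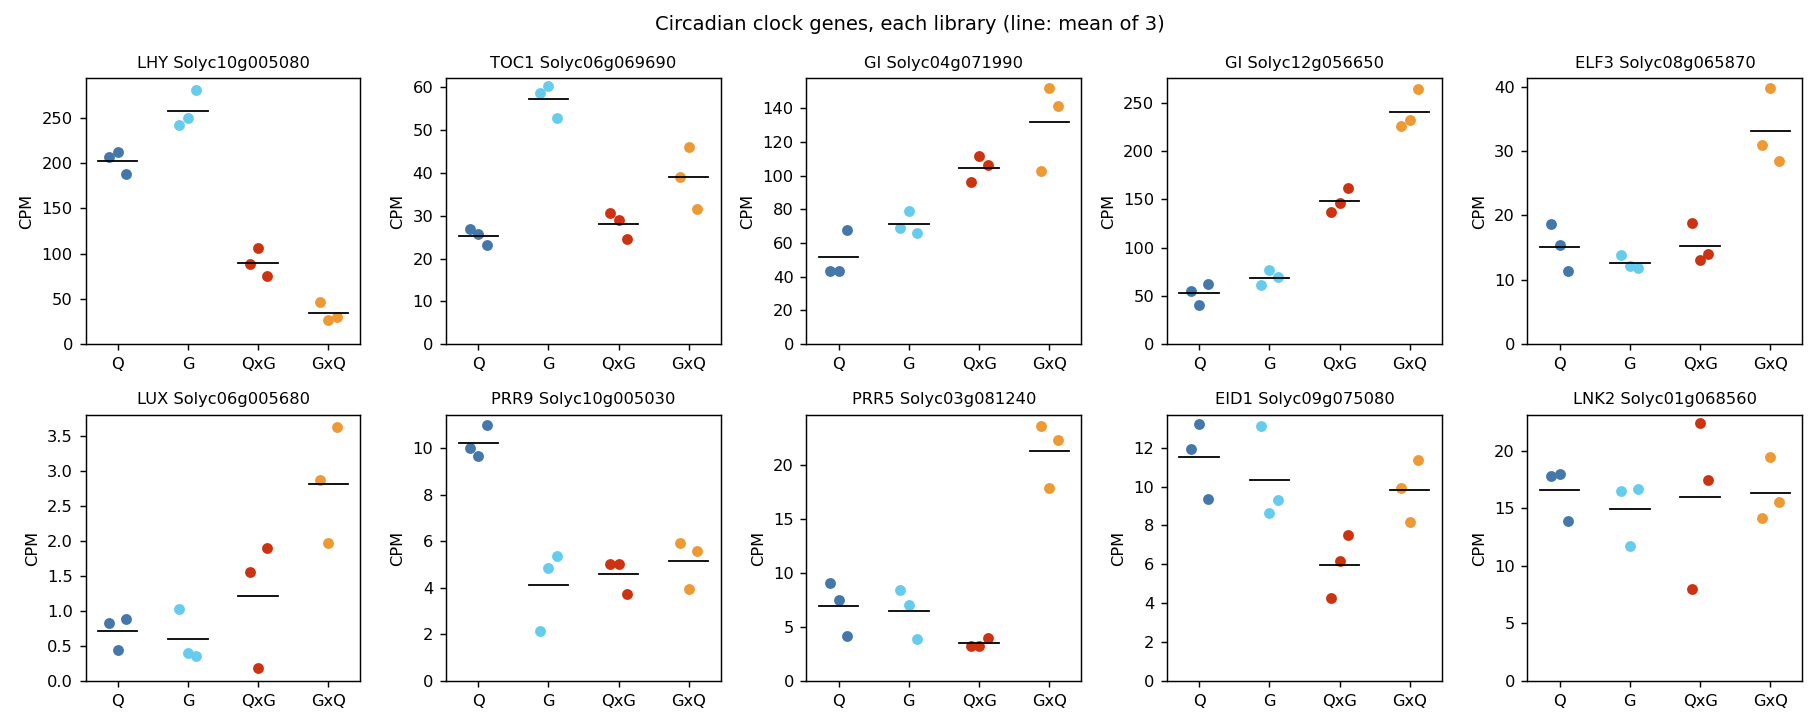
Levels of clock genes in CPM (y axis, linear, from 0) in each library, with 3 points per genotype (x axis) and a line at the mean of 3. LHY is lowest in the GxQ libraries at 26.7 to 46.3 CPM and highest in G. The GI gene Solyc12g056650 is highest in GxQ at 226 to 264 CPM, with QxG next and both parents lowest.

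Heat shock proteins are chaperones that bind unfolded proteins, and several also accumulate as tomato fruits ripen. Of the 17 heat shock genes measured, 5 rose in the hybrids together, against 5.3% of all genes, and the median log2 difference was 0.63. In QxG alone 10 of the 17 were higher, against 3.37% of all genes, and in GxQ 3 were higher and 1 lower, against 9.47% and 6.28%. The summed level of the list was 34614 to 61251 CPM in the QxG libraries, 15749 to 27893 CPM in GxQ, 19731 to 20536 CPM in G and 10955 to 22863 CPM in Q.

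The genes that both hybrids shared were a small heat shock protein and a pair of HSP70 chaperones. The small heat shock protein Solyc06g076560 had 1268, 1439 and 2585 CPM in the Q fruits, 2596, 1234 and 2625 CPM in G, 4085, 8357 and 10190 CPM in QxG, and 2792, 5412 and 4723 CPM in GxQ. Every hybrid library exceeded every parental one, although the lowest GxQ library did so narrowly. The rise was 2.93-fold (log2 1.55 ± 0.309, SE, adjusted p = 0.0102), with an adjusted p of 0.00963 for QxG and 0.0491 for GxQ.

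HSP70 gene Solyc10g086410 rose 2.33-fold, from 54.2 ± 29.4 CPM (SD, n = 3) in Q and 85.6 ± 8.28 in G to 160 ± 63.7 in QxG and 157 ± 34.7 in GxQ (log2 1.22, adjusted p = 0.0114). The 6 hybrid libraries lay above the 6 parental ones. HSP70 gene Solyc09g010630 rose 1.6-fold (log2 0.68, adjusted p = 0.0174), also without overlap, its means being 459 CPM in Q, 427 in G, 695 in QxG and 724 in GxQ. Its adjusted p was 0.054 without the third G library.

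The small heat shock gene Solyc06g076520 rose 2.75-fold in the hybrids together (adjusted p = 0.0114) and its GxQ libraries, at 3175 to 5190 CPM, all exceeded the parental maximum of 2940 CPM, but GxQ alone missed the threshold (adjusted p = 0.0574). A neighbour, Solyc06g076570, rose 1.95-fold (adjusted p = 0.0414), a call lost in 9 of the 12 fits that each left out 1 library. It was not called in GxQ alone. These genes belong to 1 family, and reads of near-identical copies may not be separable. The number of heat shock genes that rose was 3 without the third G library, 8 without the third Q library, 5 without the first QxG library and 11 without the latter 2 together. In the third Q library HSP21, the chloroplast small heat shock protein, had 1050 CPM, and the other Q fruits had 529 and 637 CPM.

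HSP21 (Solyc03g082420) was at 1731, 3444 and 4494 CPM in QxG and at 317, 893 and 886 CPM in GxQ, with 529 to 1217 CPM in the parents. It did not pass the joint test (log2 0.77, adjusted p = 0.126), but it was higher in QxG (log2 1.87, adjusted p = 0.0119) and the hybrids differed by a log2 of 2.21 (adjusted p = 0.00818). The HSP90 genes Solyc03g007890 and Solyc06g036290 were likewise higher in QxG by a log2 of 1.59 and 2.04, and differed between the hybrids by a log2 of 1.72 and 2.65 (adjusted p = 0.0247 and 0.0143). A further HSP90 gene, Solyc07g065840, had log2 differences of 0.56 and 0.69 and passed neither test (joint adjusted p = 0.0575). HSP101, a disaggregase, was lower in GxQ (log2 -1.30, adjusted p = 0.0136) at 1256 ± 227 CPM (SD, n = 3), against 2516 ± 1149 in Q, 3801 ± 521 in G and 3749 ± 1009 in QxG. HsfA2, a heat stress transcription factor, did not pass the joint test (log2 0.50, adjusted p = 0.262).

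**Figure D3:**
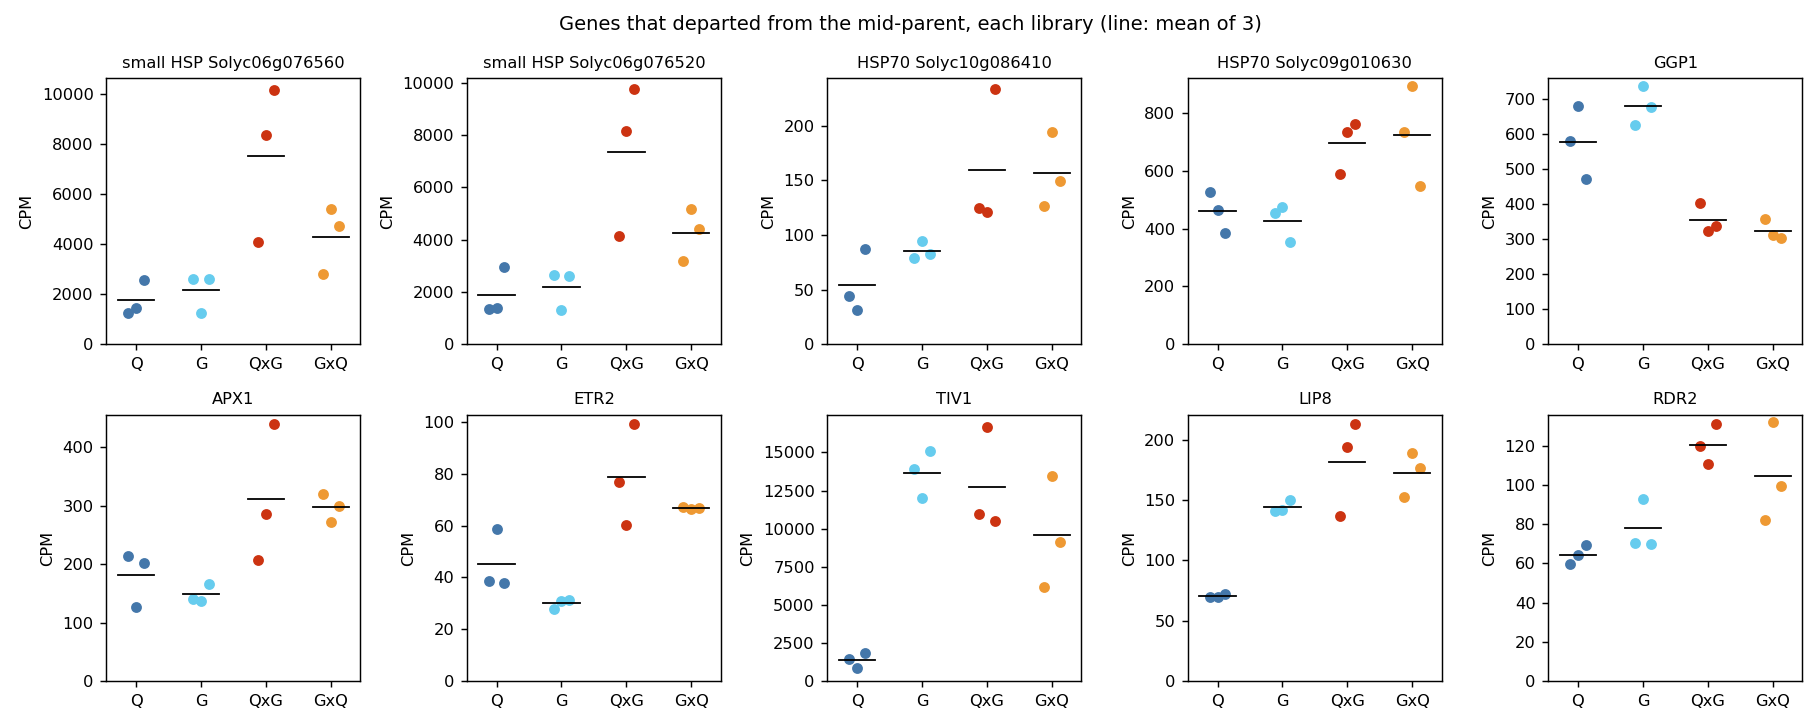
Levels in CPM (y axes, linear, from 0) of 10 genes that departed from the mid-parent in the hybrids together, with 1 point per library, 3 per genotype (x axis), and a line at the mean of 3. For GGP1 all 6 hybrid libraries lie at 302 to 404 CPM, below all parental ones, while TIV1 in the hybrids lies near G and far above Q.

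Ascorbate, the vitamin C of the fruit, is made through GDP-mannose and GDP-galactose. Of 13 genes of its synthesis and recycling, 3 fell and 1 rose, against 6.13% and 5.3% of all genes, with a median log2 difference of -0.16. A single gene of 13 is near the background share. The genes that fell were all of the synthesis branch. GGP1 (Solyc06g073320) encodes GDP-L-galactose phosphorylase, the step regarded as the main control point. It had 580.3, 681 and 472 CPM in the fruits of Q, 625, 737 and 676 CPM in G, 404, 324 and 338 CPM in QxG, and 357, 313 and 302 CPM in GxQ. No hybrid library reached the lowest parental one. The fall was 1.85-fold (log2 -0.88 ± 0.125, SE, adjusted p = 0.0023) and was called in QxG (adjusted p = 0.0122) and GxQ (adjusted p = 0.00321).

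Its paralogue GGP2 (Solyc02g091510) fell 1.97-fold (log2 -0.98, adjusted p = 0.00733) from 171 ± 17 CPM (SD, n = 3) in Q and 219 ± 7.46 in G to 112 ± 49.9 in QxG and 86.5 ± 14.9 in GxQ. The first QxG library, at 169 CPM, was within the parental range, and QxG alone just missed the threshold (adjusted p = 0.0518). GME1, the GDP-mannose epimerase one step further back, fell 1.35-fold (adjusted p = 0.0391), a call lost in 9 of the 12 fits without 1 library. It was called lower in GxQ (adjusted p = 0.0384) and not in QxG (adjusted p = 0.162). APX1 (Solyc06g005160), an ascorbate peroxidase that consumes ascorbate, rose 1.86-fold (log2 0.89 ± 0.186, SE, adjusted p = 0.012) and in each hybrid (adjusted p = 0.026 and 0.0222). It went from 181 ± 47.1 CPM (SD, n = 3) in Q and 148 ± 16.2 in G to 311 ± 118 in QxG and 297 ± 23.6 in GxQ. One QxG library, at 208 CPM, lay below the highest Q library at 213 CPM.

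Ethylene drives the ripening of tomato. Of 31 genes of ethylene synthesis, perception and ripening control, 2 rose and 3 fell (median log2 difference -0.08). These numbers are near the 5.3% and 6.13% of all genes that rose and fell. Among receptors, which repress the response until they bind ethylene, ETR2 rose and ETR4 fell. ETR2 (Solyc07g056580) had 38.6, 58.9 and 37.9 CPM in Q fruits, 28, 30.7 and 31.2 CPM in G, 76.8, 60.4 and 99.2 CPM in QxG, and 67.1, 66.5 and 66.7 CPM in GxQ. The groups did not overlap, though the second Q library came close to the second QxG library. It rose 1.97-fold (log2 0.98 ± 0.142, SE, adjusted p = 0.00258), in QxG (adjusted p = 0.00506) as in GxQ (adjusted p = 0.00668).

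ETR4 (Solyc06g053710) fell 1.84-fold (adjusted p = 0.02), from 949 ± 180 CPM (SD, n = 3) in Q and 1335 ± 153 in G to 724 ± 247 in QxG and 517 ± 168 in GxQ. The fall was called in GxQ (log2 -1.12, adjusted p = 0.0155) and not in QxG (log2 -0.64, adjusted p = 0.143), and the hybrids did not differ beyond their spread (adjusted p = 0.335).

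Of the enzymes that make ethylene, ACS4, an ACC synthase, fell 2.68-fold (log2 -1.42 ± 0.35, SE, adjusted p = 0.0251). Its libraries had 256 to 530.2 CPM in Q, 264 to 387 CPM in G, 68.6 to 143 CPM in QxG and 48.5 to 269 CPM in GxQ, so that only the highest GxQ library reached the parental range. The adjusted p rose to at most 0.0606 without the first G, the third QxG or the second GxQ library. ACO4, an ACC oxidase, fell 1.88-fold (adjusted p = 0.0286), a call lost in 7 of the 12 fits without 1 library. The hybrids of ACO4, at 48.5 ± 16.1 and 38.1 ± 20 CPM (SD, n = 3 each), overlapped G at 57.7 ± 7.21 and lay below Q at 113 ± 5.42. ACS4 was called lower in QxG (adjusted p = 0.0385) and not in GxQ (adjusted p = 0.113). ACO4 was called lower in GxQ (adjusted p = 0.0293) and not in QxG (adjusted p = 0.136).

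ACS2 (log2 -0.98, adjusted p = 0.131), ACO1 (log2 0.19, adjusted p = 0.815) and ACO5 (log2 0.66, adjusted p = 0.467) did not pass the joint test. ACO5 nevertheless differed between the hybrids by a log2 of -3.18 for QxG minus GxQ (adjusted p = 0.0273), with means of 1.24 and 11.4 CPM. Among the MADS-box regulators of ripening, FUL2 rose 1.42-fold (log2 0.50 ± 0.0911, SE, adjusted p = 0.00673), and RIN (log2 -0.03, adjusted p = 0.914) and FUL1 (log2 0.03, adjusted p = 0.893) did not pass. FUL2 (Solyc03g114830) had 79.2 to 93.3 CPM in the parents, 94.9 to 106 CPM in QxG and 135 to 167 CPM in GxQ. The 3 ranges did not overlap, but QxG alone was not called (adjusted p = 0.241), and the hybrids differed by a log2 of -0.57 for QxG minus GxQ (adjusted p = 0.0139).

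Sugars reach the fruit as sucrose and are split by invertases or sucrose synthase before hexose kinases act on them. Of 20 sugar genes 1 rose, near the 5.3% of all genes, and 4 fell, against 6.13%, with a median log2 difference of -0.28. TIV1 (Solyc03g083910), the vacuolar invertase, had 1409, 877 and 1834 CPM in the Q fruits, 13890, 11990 and 15070 CPM in G, 10960, 16660 and 10520 CPM in QxG, and 6156, 13460 and 9104 CPM in GxQ. Q stood far below the other 3 genotypes (Q against G, adjusted p = 0.00122), and the hybrids lay around or below G. On the log scale they exceeded the mid-parent 2.55-fold (log2 1.35 ± 0.258, SE, adjusted p = 0.00852), in QxG (adjusted p = 0.0121) and in GxQ (adjusted p = 0.0248). In a fit of 6 hybrid against 6 parental libraries, whose reference is the mean on the count scale, the log2 difference was 0.59 and not called (adjusted p = 0.642). That fit counts the difference between Q and G as spread, so its adjusted p does not reflect the scale alone.

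FRK1 (Solyc03g006860), a fructokinase, fell 1.5-fold in the hybrids together (log2 -0.58, adjusted p = 0.0105) and in each (adjusted p = 0.0477 and 0.0136), from 26.9 ± 3.04 CPM (SD, n = 3) in Q and 38.5 ± 1.6 in G to 22.4 ± 5.28 and 20.6 ± 1.05. One QxG library, at 28.4 CPM, overlapped Q. SUT4, a sucrose transporter, fell 1.91-fold (adjusted p = 0.0108) to 7.76 ± 1.23 and 6.34 ± 1.61 CPM (SD, n = 3) in QxG and GxQ, from 18.8 ± 5.58 in Q and 9.51 ± 0.966 in G. The cell wall invertase LIN7 fell 1.83-fold (adjusted p = 0.0237) with no overlap of the groups, but the call was lost in 5 of the 6 fits that left out a parental library. SUT4 and LIN7 were called lower in GxQ (adjusted p = 0.0125 and 0.0473) and not in QxG (adjusted p = 0.0597 and 0.0638). Hexokinase gene HXK1, named after its values were seen, was called lower (log2 -0.81, adjusted p = 0.0398) and lost that call in 7 of the 12 fits without 1 library. Its means were 19.7 CPM in Q, 7.1 in G, 7.15 in QxG and 6.33 in GxQ, so that the hybrids lay near G. Neither QxG (adjusted p = 0.134) nor GxQ (adjusted p = 0.0535) was called against the mid-parent. The invertase LIN5 (log2 -0.42, adjusted p = 0.234) and the sucrose synthase SUS1 (log2 0.17, adjusted p = 0.722) did not pass.

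INVINH1, which encodes an inhibitor of invertase, went in opposite directions and was named for that after its values were seen. It had 67.9 to 115 CPM in the parents, 46.6 to 64.7 CPM in QxG and 129 to 233 CPM in GxQ. It was lower in QxG (log2 -0.84, adjusted p = 0.0438) and higher in GxQ (log2 1.02, adjusted p = 0.00929), with a joint log2 difference of 0.09 (adjusted p = 0.79).

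Organic acids and gamma-aminobutyrate add to the taste of the fruit, and 2 of the 9 genes for their metabolism rose, against 5.3% of all genes (median log2 difference 0.21). GAD1, a glutamate decarboxylase that makes gamma-aminobutyrate, rose 1.54-fold (log2 0.62, adjusted p = 0.0152) to 725 ± 50.9 CPM (SD, n = 3) in QxG and 830.4 ± 36.1 in GxQ, from 394 ± 92.9 in Q and 648 ± 95.6 in G. GAD1 was called higher in GxQ (adjusted p = 0.0128) and not in QxG (adjusted p = 0.0675). Its paralogue GAD3 had a log2 difference of -0.01 (adjusted p = 0.991). The aconitase gene Solyc12g005860 had 136, 129 and 140 CPM in the fruits of Q, 39.7, 54.1 and 44.3 CPM in G, 96.9, 53.5 and 72.3 CPM in QxG, and 659, 783 and 801 CPM in GxQ. QxG lay between the parents, and GxQ far above both. The joint rise of 2.99-fold (log2 1.58 ± 0.149, SE, adjusted p = 0.000304) therefore held a log2 of 3.25 in GxQ (adjusted p = 2.65e-06) and of -0.09 in QxG (adjusted p = 0.797), and the hybrids differed by a log2 of -3.33 for QxG minus GxQ (adjusted p = 3.93e-05).

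Fruit softening depends on enzymes that loosen the cell wall. Of 12 such genes 2 fell, against 6.13% of all genes, and the median log2 difference was -1.03, the lowest among lists with more than 2 measured genes. The hybrids were unlike in this. In GxQ 5 of the 12 were lower, against 6.28% of all genes (median log2 -1.69). In QxG 0 were lower, against 5.14% of all genes (median log2 -0.35). The summed level of the list was 3608 to 4443 CPM in GxQ and 6812 to 8047 CPM in QxG, against 7231 to 21451 CPM in Q and 9136 to 10670 CPM in G. The medians include the third Q library, high for several of these genes. Without it and the first QxG library, the joint log2 differences of PG2A, EXP1, CEL2 and MAN4 shrank to -0.62, -0.47, -0.35 and -1.80. Those of XTH5 and Solyc05g005560 grew to -0.57 and -1.88. The list median was not recomputed without these libraries. Pectate lyase PL (Solyc03g111690) had 2567, 2648 and 5212 CPM in Q fruits, 3525, 3177 and 2422 CPM in G, 2382, 1859 and 1933 CPM in QxG, and 696, 576 and 686 CPM in GxQ. All hybrid libraries were below all parental ones, those of QxG narrowly. PL fell 2.8-fold (log2 -1.49 ± 0.207, SE, adjusted p = 0.00219), with a log2 of -2.32 in GxQ (adjusted p = 0.000891) and -0.66 in QxG (adjusted p = 0.127), and the hybrids differed (log2 1.66, adjusted p = 0.00364).

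MAN4, an endo-mannanase, was at 3.66 CPM in the first QxG library, at 31.1 and 18.7 CPM in the others, and at 0.453 to 2.24 CPM in GxQ. The parental libraries had 14.4 to 23.7 CPM except the third Q library, which had 155 CPM. The joint fall had a log2 of -2.96 (adjusted p = 0.0175), and of -2.06 without the third Q library. The hybrids differed by a log2 of 3.94 (adjusted p = 0.0293). The polygalacturonase PG2A (log2 -1.14, adjusted p = 0.0589) and the expansin EXP1 (log2 -0.98, adjusted p = 0.0739) did not pass the joint test. Without the third Q library their log2 differences were -0.59 and -0.50. Both were lower in GxQ (log2 -1.51 and -1.86, adjusted p = 0.0457 and 0.0155), and EXP1 differed between the hybrids (log2 1.76, adjusted p = 0.0346), which PG2A did not (adjusted p = 0.394).

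**Figure D4:**
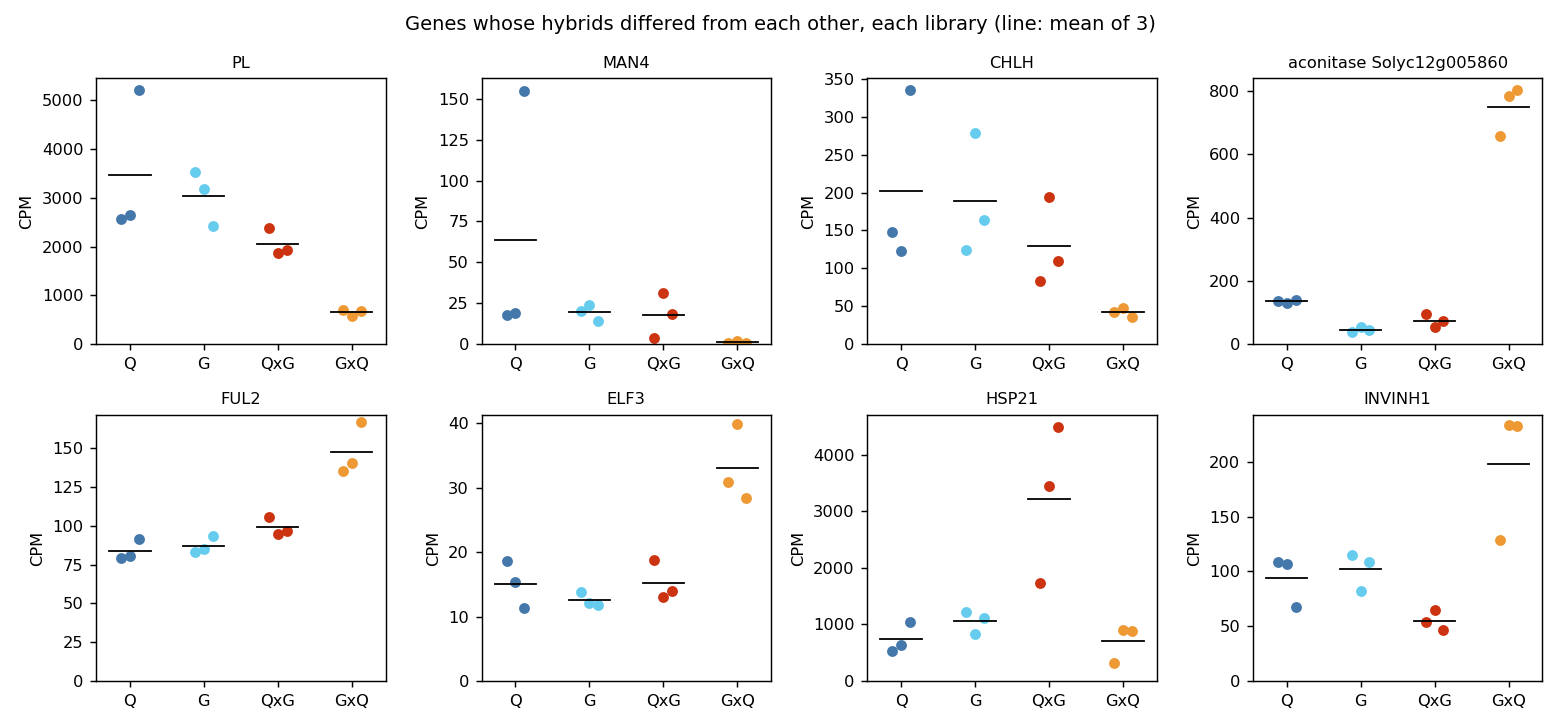
Levels in CPM (y axes, linear, from 0) of 8 genes at which QxG and GxQ differed from each other, with 1 point per library, 3 per genotype (x axis), and a line at the mean of 3. For PL, MAN4 and CHLH the GxQ libraries are lowest, for the aconitase gene, FUL2, ELF3 and INVINH1 they are highest, and HSP21 is highest in QxG at 1731 to 4494 CPM.

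Carotenoids give the ripe fruit its colour. Of 23 carotenoid genes 1 rose and 3 fell, against 5.3% and 6.13% of all genes (median log2 difference -0.34). ZISO, the zeta-carotene isomerase on the way to lycopene, fell 1.83-fold (log2 -0.87 ± 0.187, SE, adjusted p = 0.0137) from 1423 ± 497 CPM (SD, n = 3) in Q and 2112 ± 36.3 in G to 1126 ± 311 in QxG and 800.3 ± 85 in GxQ. GGPPS3, which makes the precursor geranylgeranyl diphosphate, fell 1.43-fold (adjusted p = 0.0286), and NCED1, the entry enzyme of abscisic acid synthesis, fell 1.87-fold (adjusted p = 0.0359). Leaving out 1 library ended the call in 6 of 12 fits for GGPPS3 and in 9 for NCED1. GGPPS3 was lower in GxQ than in QxG by a log2 of 0.67 (adjusted p = 0.0391). ZISO, GGPPS3 and NCED1 were called lower in GxQ (adjusted p = 0.0102, 0.00676 and 0.038) and not in QxG (adjusted p = 0.116, 0.52 and 0.156). PSY1 (log2 -0.34, adjusted p = 0.351), PDS (log2 0.03, adjusted p = 0.943) and CYCB (log2 -0.50, adjusted p = 0.231), which act at the entry, the first desaturation and the cyclization to beta-carotene, did not pass.

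CCD1A, a carotenoid cleavage dioxygenase, shows what the choice of mid-parent does when the parents are far apart. Its level was 7.44 ± 0.719 CPM (SD, n = 3) in Q, 75.1 ± 15.3 in G, 32.1 ± 3.33 in QxG and 31.6 ± 1.3 in GxQ. On the log scale the hybrids together exceeded the mid-parent (log2 0.43, adjusted p = 0.0321). Neither QxG (adjusted p = 0.0652) nor GxQ (adjusted p = 0.0578) was called alone. In the fit of 6 against 6 libraries, on the count scale, the log2 difference was -0.35 (adjusted p = 0.779, with the difference between the parents counted as spread). The call on the log scale was lost in 6 of the 12 fits without 1 library and without the first QxG and the third Q libraries together (adjusted p = 0.0513). Of the 948 genes that rose, 14 lay below the arithmetic mean of the parents in CPM, and the parents differed at all 14. Of the 1097 that fell, 5 lay above it.

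Volatiles and jasmonate share lipid precursors. Of 14 genes of these pathways 1 rose and 2 fell, against 5.3% and 6.13% of all genes, with a median log2 difference of 0.14. LIP8 (Solyc09g091050), a lipase that releases fatty acids for volatile synthesis, had 69.5 to 71.8 CPM in Q, 141 to 150.0 CPM in G, 137 to 213 CPM in QxG and 152 to 189 CPM in GxQ. As with TIV1, Q was far below the other 3 genotypes (Q against G, adjusted p = 0.00481). LIP8 rose 1.75-fold (log2 0.81 ± 0.116, SE, adjusted p = 0.00245), in QxG (adjusted p = 0.00632) and GxQ (adjusted p = 0.00425). In the fit of 6 hybrid against 6 parental libraries its log2 difference changed little and was not called (log2 0.73, adjusted p = 0.0803). That fit counts the difference between the parents as spread. AOC, the allene oxide cyclase of jasmonate synthesis, fell 1.61-fold without overlap (log2 -0.69, adjusted p = 0.0114), from 13.8 to 23.4 CPM in the parents to 7.81 to 13.4 CPM in the hybrids. It was called lower in GxQ (adjusted p = 0.0117) and not in QxG (adjusted p = 0.0678).

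AAT1, which esterifies alcohols to acetate volatiles, was called lower (log2 -0.62, adjusted p = 0.0453), a call lost in 11 of the 12 fits without 1 library, and differed between the hybrids by a log2 of 1.01 (adjusted p = 0.0266). LOXD, a lipoxygenase of jasmonate synthesis, did not pass the joint test (log2 0.56, adjusted p = 0.518). It had 5.11 to 55.2 CPM in the parents, 1.94 to 6.76 CPM in QxG and 93.5 to 249 CPM in GxQ, and the hybrids differed by a log2 of -5.69 for QxG minus GxQ (adjusted p = 0.00152). TomLoxC, the lipoxygenase of flavour volatiles, had a log2 difference of -0.10 (adjusted p = 0.858).

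Small RNAs guide DNA methylation in plants, and RDR2 makes the double-stranded RNA from which they are cut. Of 11 genes of DNA methylation and its guidance, 1 rose and 1 fell, near the shares of all genes (median log2 difference 0.02). RDR2 (Solyc03g114140) had 59.7, 64.4 and 69.1 CPM in the Q fruits, 70.5, 93.1 and 70.1 CPM in G, 120.0, 111 and 131 CPM in QxG, and 82.0, 132 and 99.6 CPM in GxQ. QxG lay above all parental libraries, and 1 GxQ library lay below the highest G library. RDR2 rose 1.59-fold (log2 0.67 ± 0.128, SE, adjusted p = 0.00891), in QxG (adjusted p = 0.0135) and GxQ (adjusted p = 0.0288). DRM7, of the family of methyltransferases that act in this pathway, fell 1.49-fold (adjusted p = 0.0349), a call lost in 9 of the 12 fits without 1 library. It was not called lower in QxG alone.

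Of 10 phenylpropanoid genes 1 rose and 1 fell, again near those shares (median log2 difference -0.02). The 4-coumarate:CoA ligase gene 4CL rose 1.86-fold (log2 0.89, adjusted p = 0.0122) to 308 ± 70.9 CPM (SD, n = 3) in QxG and 449.6 ± 127 in GxQ, from 217 ± 74.4 in Q and 185 ± 11.5 in G. Its rise was called in GxQ (adjusted p = 0.00557) and not in QxG (adjusted p = 0.102). The phenylalanine ammonia-lyase gene Solyc10g086180 fell 3.56-fold from the log mid-parent (adjusted p = 0.0123), with 46.7 CPM in Q, 3.9 in G, 6.53 in QxG and 2.2 in GxQ, so that the hybrids lay near G. This fall was called in GxQ (adjusted p = 0.00735) and not in QxG (adjusted p = 0.18). Of 12 chloroplast genes 1 fell (median log2 difference -0.37): CHLH, a subunit of magnesium chelatase in chlorophyll synthesis, went from 202 ± 116 CPM (SD, n = 3) in Q and 189 ± 80.6 in G to 129 ± 57.4 in QxG and 42.2 ± 6.02 in GxQ (log2 -1.40, adjusted p = 0.0128). The hybrids differed by a log2 of 1.61 (adjusted p = 0.0308). The summed level of the 12 genes was 1083 to 1658 CPM in GxQ, 1611 to 2769 CPM in QxG, 2287 to 2505 CPM in G and 1775 to 3569 CPM in Q, and its part in the other changes of GxQ was not tested.

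Of the 2 epidermal genes measured, CER6, which elongates fatty acids of the cuticular wax, was called lower (log2 -2.73, adjusted p = 0.0288), a call lost in 6 of the 12 fits without 1 library. Neither hybrid was called alone. CER6 had 3.52 to 12.8 CPM in Q and at most 1.01 CPM in every other library, and the other gene, CD2, did not pass (adjusted p = 0.732). Their sum was 13.4 to 22.1 CPM in Q, 11.2 to 11.4 in G, 5.02 to 9.73 in QxG and 4.38 to 16 in GxQ. Whether skin carried over into the samples had a part in other results was not tested. Of 9 genes often used as references for fruit RNA, GAPDH rose 1.54-fold (adjusted p = 0.0381), a call lost in 8 of the 12 fits without 1 library, and the median log2 difference of the 9 was -0.09. None of the 9 was called in QxG alone.

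By edgeR no call was made among 4 defence genes (median log2 difference 1.03), 2 genes of fruit size and shape (0.61) and 2 ASR genes of the response to drying and ripening (-0.30). At an unadjusted p under 0.05 they held 1, 1 and 0 genes, and DESeq2 called 1, 1 and 0. The 7 glycoalkaloid genes of the lists were not among the genes analysed here. Over all lists 200 of 245 genes were measured, of which 41 (20.5%) were called, 19 higher and 22 lower, against 11.4% of all genes. Both hybrids shared 13 of them (6.5%), 10 higher and 3 lower, against 2.79% of all genes. The lists were chosen with earlier results of these data known.

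**Figure D5:**
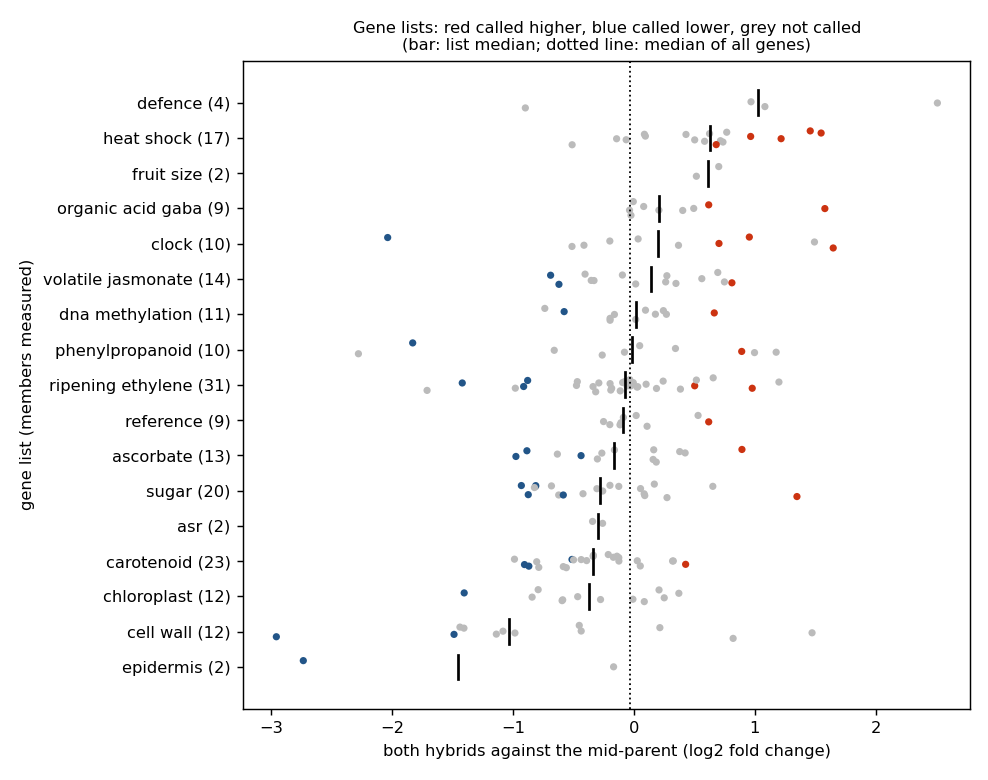
Log2 difference of both hybrids together from the mid-parent (x axis) for each measured gene of the lists (rows), in red where called higher, blue where called lower and grey where not called, with a bar at the list's median and a dotted line at the median of all genes. The clock list spans the range from LHY at -2.04 to the GI gene Solyc12g056650 at 1.65, while the cell wall list has its median at -1.03. Set against the mid-parent alone, the cell wall median was -0.35 in QxG and -1.69 in GxQ. These medians include the third Q library, in which several cell wall genes were highest.

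Genes on no list were named by identifier where the hybrids did not overlap the parents and both hybrids were called. Of 289 such genes of at least 5 CPM, 150 were higher and 139 lower. Whatever the level or call, all 6 hybrid libraries lay above all 6 parental ones at 1.84% of all genes and below them at 2.26%. Solyc01g091260 had 8.14 to 15.2 CPM in the parents, 30.3, 60.6 and 188 CPM in QxG, and 81.2, 64.2 and 73.0 CPM in GxQ, a rise of 8.07-fold (log2 3.01, adjusted p = 0.00123). Solyc05g011890 had 42.0 to 144 CPM in the parents and 7.31 to 14.4 CPM in the hybrids, a fall of 6.03-fold (log2 -2.59, adjusted p = 0.000164). Both genes lay outside the parental range by the rule that chose them. Their hybrids were not called different from each other (adjusted p = 0.704 for Solyc01g091260 and 0.583 for Solyc05g011890).

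The next 2 identifiers also differed between the parents. Solyc04g014510 fell 10.7-fold (log2 -3.42, adjusted p = 5.96e-05), from 21.8 ± 8.27 CPM (SD, n = 3) in Q and 2.28 ± 0.495 in G to 1.13 ± 0.255 in QxG and 0.377 ± 0.0948 in GxQ, and the hybrids differed by a log2 of 1.56 (adjusted p = 0.0243). Solyc02g065280 had 0 reads in all 3 G libraries, which allows up to 0.0493 CPM over that group, 3.41 ± 0.738 CPM (SD, n = 3) in Q, 8.23 ± 2.65 in QxG and 13.9 ± 9.13 in GxQ (adjusted p = 0.000384). With 0 reads in G, the log mid-parent of this gene, and so this adjusted p, rests on a fitted G level near 0. In the fit of 6 hybrid against 6 parental libraries its log2 difference was 2.67 and not called (adjusted p = 0.148). That fit counts the difference between the parents as spread. Against Q alone Solyc02g065280 was higher in GxQ (adjusted p = 0.0195) and not called in QxG (adjusted p = 0.108).

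A stricter reading asks that both hybrids differ from both parents. At 62 genes (0.347%) both hybrids were called above Q and above G, and at 57 genes (0.319%) both were called below Q and below G. Without a test, all 6 hybrid libraries lay above all 6 parental ones at 329 genes (1.84%) and below them at 404 genes (2.26%).

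At 233 genes (1.3%) the hybrids were called on opposite sides of the mid-parent. At 229 of them QxG was lower and GxQ higher, and at 4 the reverse. All 233 were also called when QxG was tested against GxQ, and 4 were called in the joint comparison. Of the 229, 28 (12.2%) had 0 reads in the first QxG library, against 8.03% of all genes. The count was 67 without the third QxG library, 145 without the first, 112 to 124 without any 1 of the first and second Q, the first and the third G, the second QxG and the third GxQ libraries, and 377 without the first QxG and the third Q libraries together.

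The share of genes called rose with expression level. It was 4.61% among the genes of lowest mean level when all were cut into 4 groups of like size (up to 3.37 CPM), 11.2% and 14.2% in the next ones and 15.8% in the highest (above 47.1 CPM). The directions differed as well: in the lowest group 41 genes rose and 165 fell, and in the highest 490 rose and 216 fell. Of the 1097 genes that fell 60 (5.47%) had 0 reads in the first QxG library, against 4 of the 948 that rose and 8.03% of all genes. The part of these 0 counts in the falls was not tested. Along the genome the share varied less, from 10.7% to 12.7% of the tested genes on each of the 12 chromosomes.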

How the data were processed

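RNA-seq was done on 12 libraries of red ripe tomato mesocarp, 3 fruits for each of 4 genotypes, grouped by the genotype in the labels. The table that the authors deposited holds read counts per gene; although it is named as normalized, every value is whole and library totals vary (15207931 to 25320267), and the values were treated as unnormalized. FastQC, fastp 0.21, HISAT2 2.1.0, featureCounts of Subread, edgeR and R 4.0.3 appear, without roles, per the submitters' processing notes. Not given in the sources used here are the build, the annotation, the use of strand and the handling of multiply matching reads. Overlapping or antisense genes and near-identical copies may not be separable. Every gene has over 0.5 CPM in at least 3 libraries, and genes below that were not analysed here. No 2 libraries held identical values, and 0 columns were left unmatched to a sample. The labels call the fruits biological replicates.

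Counts were tested with edgeR 4.0.16 (quasi-likelihood F test, TMM factors 0.884 to 1.24, 1 mean per genotype, 8 residual degrees of freedom, common biological coefficient of variation 0.309), in R 4.3.3; filterByExpr removed no gene. Contrasts were both hybrids, QxG and GxQ each against the mid-parent, QxG against GxQ, Q against G and each hybrid against each parent. The standard error is the log2 difference divided by the square root of F. For genes at 0 reads the floor was 3 counts over the group. It covers counting error only. On simulated counts of 17548 genes the joint contrast recovered 37% of 2-fold and 79% of 4-fold changes, and 7.2% of its calls were false. The simulation changed 100 genes at each fold, equally in both hybrids, with no difference between the parents or between the hybrids. Its share of false calls need not be that of the real calls.

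Replicate numbers from the labels were checked for pairing. Same-numbered libraries of the 2 hybrids deviated together from their genotype means (r = 0.164, 0.333 and 0.209), while no other 2 genotypes had all 3 values over 0.1, so a block by number within the hybrids was added. The labels do not say what the number marks.

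The table gives Solyc identifiers without names, and 0 of them were found among the 41476 genes of RefSeq (assembly SLM_r2.1). Names rest on 19 lists of 245 genes written from memory with their identifiers; of 155 symbols that name 1 RefSeq gene, 143 lay on the chromosome of the identifier. Another ripening gene is not reported here. The comparison, its gene lists and the naming rule were chosen with earlier results of these data known. The rule took, among called list genes of at least 5 CPM, the 12 largest rises and falls, up to 4 called genes of each list by adjusted p, a set of ripening, sugar and heat shock genes called or not, and 4 unlisted genes. Alternatives were other scalings, a filter at 1 CPM, DESeq2 1.42.0, limma 3.58.1 (voom), replicate blocks, a 2-group fit, a fold minimum and leaving out libraries.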

Additional observations from a re-analysis of the deposited data

Results flagged for a closer look

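At 20 named genes the departure from the mid-parent differed between the hybrids when QxG was tested against GxQ (edgeR's quasi-likelihood test, adjusted p under 0.05 over all genes, a result 10.1% of all genes gave). QxG was the lower hybrid, by a log2 of QxG minus GxQ, at LOXD (-5.69), the aconitase gene Solyc12g005860 (-3.33), ACO5 (-3.18), PRR5 (-2.61), INVINH1 (-1.85), ELF3 (-1.11), the GI gene Solyc12g056650 (-0.70) and FUL2 (-0.57). QxG was the higher hybrid at GGPPS3 (0.67), AAT1 (1.01), LHY (1.39), Solyc04g014510 (1.56), HSP101 (1.58), CHLH (1.61), PL (1.66), the HSP90 gene Solyc03g007890 (1.72), EXP1 (1.76), HSP21 (2.21), the HSP90 gene Solyc06g036290 (2.65) and MAN4 (3.94). LHY, Solyc12g056650 and Solyc04g014510 were called in both hybrids in the same direction and differed in size. INVINH1 was called lower in QxG and higher in GxQ. It and PRR5 were named after their values were seen. At each of the other genes exactly 1 hybrid was called.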

How the results depend on the processing

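Leaving out 1 library in turn gave 1002 to 2663 genes in the joint comparison (467 to 1238 higher, 535 to 1425 lower), 368 to 2536 for QxG, 1455 to 3779 for GxQ, 156 to 732 shared (93 to 421 higher, 63 to 311 lower) and 67 to 330 in opposite directions. DESeq2 called 3224 genes jointly (1609 higher, 1615 lower), 2861 for QxG, 3907 for GxQ, 956 shared (528 higher, 428 lower) and 395 opposite, and its joint calls included all 2045. Voom called 4854 (2161 higher, 2693 lower), 3509, 4587, 1364 (704 and 660) and 339 opposite. Without the first QxG and the third Q libraries there were 3649 (1821 and 1828), 3240, 4153, 1155 (651 and 504) and 377 opposite. The 2-group fit kept 847 of the 2045 genes (429 higher, 418 lower). By construction it counts genotype differences within a side as spread. A test against a fold of 1.5 left 101 (48 and 53), 196 for QxG, 572 for GxQ, 39 shared (25 and 14) and 35 opposite. With the replicate number as a block over all 12 libraries the counts were 1987 jointly and 471 shared. The block in the hybrids, added after seeing the data, gave 2754 jointly (1132 higher, 1622 lower), 2066 for QxG, 3414 for GxQ, 727 shared, 385 of them lower, and no other count past 1.5 times its value. DESeq2's and upper-quartile scaling gave 2073 and 2123 genes, of which 51% and 40.2% were higher, against 46.4%; the filter at 1 CPM gave 2124.

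Of 65 named genes 44 were called. The 2-group fit ended 22 of these calls and turned CCD1A (log2 -0.35), the fold minimum ended 36, and leaving out 1 library ended 3 to 12. Without the first QxG and the third Q libraries 6 calls were lost: CCD1A (adjusted p = 0.0513), DRM7 (0.0538), ACO4 (0.0544), GME1 (0.06), NCED1 (0.0772) and AAT1 (0.0893). In the same fit 4 were gained: Solyc06g036290 (0.0112), HSP21 (0.0217), Solyc03g007890 (0.0243) and HsfA2 (0.0375). Genes near 0 turned sign without being called: PDS to -0.01 under upper-quartile scaling and the full replicate block, -0.06 in the 2-group fit, -0.02 under the block in the hybrids and -0.08 to 0.16 without single libraries; RIN to 0.08 with voom, 0.09 without the 2 libraries and -0.09 to 0.06 without single ones; FUL1 to 0.00 under upper-quartile scaling; ACO1 to -0.21 without the third GxQ library (range to 0.64); SUS1 to -0.15 in the 2-group fit; GAD3 to 0.02 under DESeq2 and its scaling, 0.05 in the 2-group fit and -0.09 to 0.13 without single libraries; TomLoxC to 0.32 with voom, 0.01 in the 2-group fit, 0.33 without the 2 libraries and -0.21 to 0.27 without single ones. The cause of these shifts was not tested.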
